A study of Mus musculus with 4 samples.

Results

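The genes described here are those of the G1 cell cycle engine: the D-type cyclins Ccnd1, Ccnd2 and Ccnd3, the E-type cyclins Ccne1 and Ccne2, the kinases Cdk2, Cdk4 and Cdk6, the inhibitor p27 (Cdkn1b) and Skp2, which marks p27 for destruction. These 10 genes were chosen by name, with earlier results of these data known. All 10 were found among the 37311 gene identifiers of the count files. All 10 passed the filter on low counts, as did 13809 genes in all. The study infected J1 mouse embryonic stem cells (strain 129S4/SvJae), grown without feeders on gelatin in serum with leukemia inhibitory factor, with 2 hairpins that target eIF4A3, a helicase and core member of the exon junction complex. Cells were selected with 1 µg/mL puromycin for 3 days, taken on day 4.5 and given cycloheximide at 0.1 mg/mL for 1 min before lysis. From these knockdown cells came 2 libraries of ribosome protected fragments (RPF, the stretches of mRNA shielded by ribosomes) and 2 libraries of total RNA, which the labels call biological replicates. All 4 libraries carry the knockdown, control cells were not analysed here, and the labels do not tie a hairpin to a library. The comparison therefore asks how much each gene's RNA was covered by ribosomes relative to other genes, within knockdown cells.

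In G1, mitogen signals raise D-type cyclins, which activate CDK4 and CDK6 to phosphorylate the retinoblastoma protein and free E2F factors. E2F then drives cyclin E, whose complex with CDK2 carries the cell into S phase, while p27 holds that complex back until the SCF ubiquitin ligase with its Skp2 subunit removes it. Mouse embryonic stem cells are known for a short G1 phase and high CDK2 activity through much of the cycle.

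The 3 kinases and the 2 E-type cyclins are shown first by the bases around their start codons, because initiation is where a ribosome is committed to an mRNA and because these genes include the most abundant of the 10 (Cdk4), the only one that passed the test (Cdk2) and the one lowest in footprints relative to RNA (Ccne2). Each line is 5′ to 3′ from GENCODE M21 transcripts (GRCm38), has 12 bases before and 6 after the start codon, and shows the start codon in capitals. The position of each window follows its sequence.
Cdk2: cactagcgctccATGgagaac (chr10:128704819-128704839, minus strand)
Cdk4: cctgcttcgagaATGgctgcc (chr10:127064224-127064244, plus strand)
Cdk6: cctgaagccagcATGgagaag (chr5:3344355-3344375, plus strand)
Ccne1: aagtcctgagccATGccaagg (chr7:38106792-38106812, minus strand)
Ccne2: tccttgaagagaATGtcaaga (chr4:11192692-11192712, plus strand)
All 5 windows cover the end of the 5′ untranslated region and the opening codons. The kinases share a G just after the start codon and the E-type cyclins do not. Cdk2 was the only one of the 10 genes without a purine 3 bases before the start codon, and 6 of the 10 had a G just after it. Over 12617 tested coding genes, 83.9% had a purine 3 bases before the start codon and 53.1% a G just after it. These letters describe the annotated transcript and were not tested against the ratios.

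Gene counts came to between 7615280 and 9434990 per library. Levels are given as CPM, counts scaled to library depth and by trimmed mean of M-values (TMM), and the log2 of RPF over total RNA is called the ratio and given ± SE, fitted with edgeR. A count of 0 allows up to 3 counts as far as counting error goes, or 0.318 to 0.394 CPM by library depth alone, without TMM. Reads carried no molecular identifiers, so PCR copies count as separate reads. Eif4a3, the targeted gene, stood at 203 ± 13.3 CPM in RPF and 110.5 ± 13.9 CPM in total RNA (SD, n = 2), with no level from control cells beside it. Summed markers of pluripotent stem cells (10 genes) came to 4504 to 4706 CPM in total RNA and 6126 to 6432 CPM in RPF. Fibroblast markers (10 genes) summed to 10.7 to 10.9 CPM in total RNA and 15.3 to 19.1 CPM in RPF. Of these, Pdgfrb (5.43), Thy1 (2.81), Col1a1 (1.92) and Col1a2 (0.549 CPM in total RNA) passed the count filter. Fap and Dcn were at 0 in all 4 libraries. In total RNA, trophectoderm markers summed to 6.66 to 8.57 CPM, primitive endoderm markers to 37.3 to 54.2 CPM and mesoderm and neuroectoderm markers to 89.2 to 105 CPM. In RPF these lists summed to 7.89 to 12.4, 53.8 to 73.4 and 186 to 214 CPM, in the same order. Of the last list, Tubb3 alone stood at 69.1 ± 11.6 CPM in total RNA and Nes at 14.6 CPM. Kdr (4.88), Pax6 (4.36) and Eomes (3.62 CPM in total RNA) also passed the count filter, while T, Mixl1, Hand2 and Neurog2 were below it. Reads tallied as ambiguous between genes, and so counted for none, made up 4.96% and 8.58% of all tallied reads in the RPF libraries. In the total RNA libraries they made up 0.755% and 0.719%.

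Of the G1 genes, Cdk2 passed as higher and none of the 10 passed as lower, against 20.5% of all tested genes higher and 21.2% lower (20.8% and 19.3% of coding genes). The other 9 did not pass, and 8 of the 10 ratios were above 0, Ccnd3 only at 0.00081. The median ratio of the 10 was 0.22, against -0.024 for all tested genes and 0.012 for coding genes. How many ratios lay above 0 depended on the setting. With library size only, just Ccnd1 (0.18) and Cdk2 (0.086) stayed positive, while the all-gene median fell to -0.46. Under the 10 CPM filter, Ccnd3 (-0.080) and Cdk6 (-0.022) turned negative. RPF and total RNA libraries did not overlap in CPM for Cdk2, Cdkn1b and Skp2, all higher in RPF, and for Ccne2, lower in RPF. Over all tested genes 34.9% were higher and 37.9% lower without overlap. At an unadjusted p under 0.05 the count was again 1 higher and 0 lower, while 51.2% of all genes fell under that limit in either direction.

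**Figure D1:**
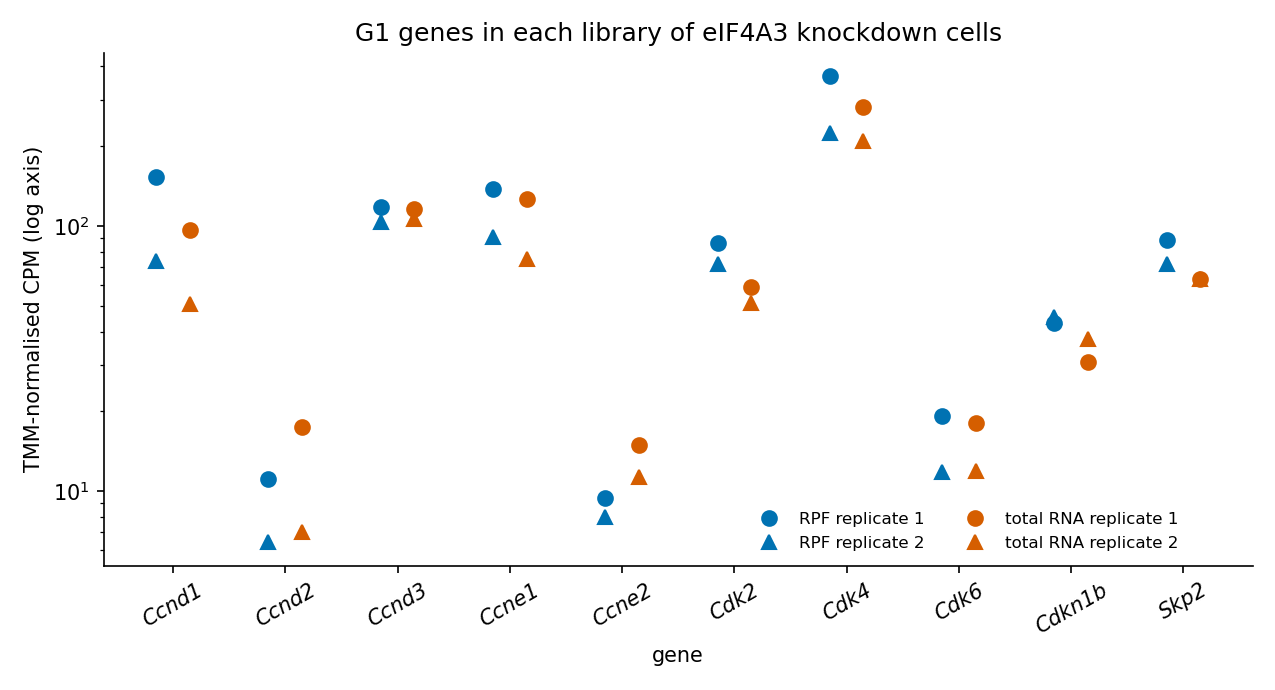
TMM-normalised CPM of the 10 G1 genes in each of the 4 libraries on a log axis, RPF in blue and total RNA in orange, circles for replicate 1 and triangles for replicate 2. Cdk4 stands highest in all 4 libraries and Ccnd2, Ccne2 and Cdk6 lie below 20 CPM in all of them, and for Ccnd1 the replicates of one fraction lie farther apart than the fractions of one replicate number.

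Cyclin D1 (Ccnd1, ENSMUSG00000070348.4), the mitogen-driven partner of CDK4 and CDK6, was counted 1185 times in RPF replicate 1 and 505 times in RPF replicate 2, with 984 and 492 counts in the matching order for total RNA. This is 153 and 73.6 CPM in RPF and 96.3 and 50.8 CPM in total RNA, so that replicate 1 was high in both fractions and RPF replicate 2 lay below total RNA replicate 1. The fitted ratio was the highest of the 10 genes but did not pass (0.63 ± 0.39, adjusted p = 0.236). In this fit of fraction alone its size moved with single libraries left out. It was 0.011 without RPF replicate 1 and 0.23 without total RNA replicate 2. It was 1.07 without RPF replicate 2 and 1.16 without total RNA replicate 1. Taken within one replicate number, the ratio was steadier, 0.67 in replicate 1 and 0.54 in replicate 2. With replicate number added to the edgeR fit it was 0.61 ± 0.097 and passed (adjusted p = 2.24e-09). The labels do not pair the libraries. The gene LTO1 on the opposite strand covers 23.4% of the annotated exon bases of Ccnd1, none of them coding, and as the strand setting of the counting is not given, reads of the pair may not be told apart.

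Cyclin D2 (Ccnd2, ENSMUSG00000000184.9), a D-type cyclin with the same kinase partners, was scarce, with 86 and 44 RPF counts and 179 and 68 total RNA counts (replicate 1, then replicate 2, as in all pairs of values that follow). An exact 95% Poisson interval for the lowest of these, 44 counts, runs from 32.0 to 59.1. The levels of 11.1 and 6.42 CPM in RPF overlapped those of 17.5 and 7.02 CPM in total RNA, with replicate 1 again the higher in each fraction. The ratio of -0.48 ± 0.47 did not pass (adjusted p = 0.443). It passed without RPF replicate 1 (-0.93, adjusted p = 0.0432) and stood at -0.99 without total RNA replicate 2, -0.13 without RPF replicate 2 and 0.32 without total RNA replicate 1.

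Cyclin D3 (Ccnd3, ENSMUSG00000034165.8) was the steadiest of the D-type cyclins. Its levels were 118 and 104 CPM in RPF and 115 and 106 CPM in total RNA. The 4 values lie within one narrow band in which the fractions overlap, and the ratio was 0.00081 ± 0.14 (adjusted p = 0.997). With library size only it was -0.43 and passed as lower (adjusted p = 0.0393), in a setting that moves the median of all genes from -0.024 to -0.46. Bysl on the opposite strand covers 4.11% of the exon bases of Ccnd3, 0 of them coding. Of the 28-base stretches in Ccnd3 transcripts, 8.6% also occur in other genes on either strand, Bysl and Ccnd3-ps among them. Whether this changes the ratio was not tested. Among D-type footprints per kb of coding sequence, Ccnd1 made up 57% in replicate 1 and 42.7% in replicate 2, and Ccnd3 made up 39% and 53.7%. Ccnd2 held 3.95% and 3.55%, so that Ccnd1 led in replicate 1 and Ccnd3 in replicate 2.

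Cyclin E1 (Ccne1, ENSMUSG00000002068.10), the activator of CDK2 at the entry to S phase, had 138 and 91.3 CPM in RPF and 126.9 and 75 CPM in total RNA. Replicate 1 was higher in both fractions and the fractions overlapped. The ratio was 0.18 ± 0.29 (adjusted p = 0.636). It passed without RPF replicate 2 (0.46, adjusted p = 0.0475), while it was -0.13 without RPF replicate 1, -0.15 without total RNA replicate 2 and 0.61 without total RNA replicate 1. Cyclin E2 (Ccne2, ENSMUSG00000028212.10), the second E-type cyclin, had only 73 and 55 counts in RPF and 152 and 110 in total RNA. Its levels of 9.44 and 8.02 CPM in RPF lay below the 14.9 and 11.4 CPM of total RNA without overlap. It had the lowest ratio of the 10 genes, which did not pass (-0.59 ± 0.27, adjusted p = 0.117). With library size only, the setting that lowers the median of all genes, it was -1.02 and passed (adjusted p = 0.0186). Ints8 on the opposite strand covers 17.4% of its exon bases, 135 of them coding. Ccne1 made up 93% and 91.2% of E-type footprints per kb of coding sequence in replicates 1 and 2, the start windows of both cyclins being those shown above.

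CDK2 (Cdk2, ENSMUSG00000025358.9), the kinase partner of cyclin E and later of cyclin A, had 670 and 492 RPF counts and 602 and 498 total RNA counts. This is 86.6 and 71.7 CPM in RPF against 58.9 and 51.4 CPM in total RNA, and both RPF libraries lay above both total RNA libraries. The ratio of 0.52 ± 0.16 passed (adjusted p = 0.0335), with the same direction in all 4 pairings of libraries, from 0.28 to 0.75. Leaving out single libraries ended the call for RPF replicate 1 (0.39, adjusted p = 0.105), total RNA replicate 1 (0.62, adjusted p = 0.0749) and total RNA replicate 2 (0.42, adjusted p = 0.239), and DESeq2 did not call it either (adjusted p = 0.0558). It was also lost with library size only (0.086, adjusted p = 0.673) and with no count filter (adjusted p = 0.0669). The same held at a mean of at least 10 CPM (adjusted p = 0.0509) and against a fold of 1.5 (adjusted p = 0.68). The call stayed in the other 8 of 16 alternatives. Among these were limma-voom (adjusted p = 0.0374) and the edgeR fit with replicate number added (adjusted p = 1.27e-06). Only 0.547% of its exon bases overlap another gene.

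CDK4 (Cdk4, ENSMUSG00000006728.6), a kinase of the D-type cyclins, was the most abundant of the 10 with 2840 and 1540 counts in RPF and 2884 and 2034 in total RNA. The levels were 367 and 225 CPM in RPF and 282 and 210 CPM in total RNA, replicate 1 being the higher in each. The ratio did not pass (0.27 ± 0.26, adjusted p = 0.443). With single libraries left out it passed without RPF replicate 2 (0.59, adjusted p = 0.0182) and was -0.12 without RPF replicate 1, 0.066 without total RNA replicate 2 and 0.49 without total RNA replicate 1. Tspan31 on the opposite strand covers 19.7% of its exon bases, none of them coding. CDK6 (Cdk6, ENSMUSG00000040274.5), the other D-type kinase, had 149 and 81 counts in RPF and 184 and 115 in total RNA. At 19.3 and 11.8 CPM in RPF and 18 and 11.9 CPM in total RNA its fractions overlapped almost fully (0.059 ± 0.32, adjusted p = 0.897). Gm17590 on the opposite strand covers 2.63% of the exon bases of Cdk6, 110 of them coding. Of the footprints of this kinase pair per kb of coding sequence, Cdk6 made up 4.65% and 4.66% in replicates 1 and 2.

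p27 (Cdkn1b, ENSMUSG00000003031.8), the inhibitor of cyclin E and CDK2, had 333 and 311 counts in RPF and 313 and 363 in total RNA. Its levels were 43.1 and 45.3 CPM in RPF and 30.6 and 37.5 CPM in total RNA, and here replicate 2 was the higher in each fraction. The fractions did not overlap, but the ratio missed the threshold (0.38 ± 0.17, adjusted p = 0.109). Skp2 (ENSMUSG00000054115.4), the F-box protein that brings p27 to the SCF ligase, had 88.3 and 72.2 CPM in RPF and 63.1 and 63.4 CPM in total RNA. Its fractions did not overlap either, and its ratio of 0.34 ± 0.15 did not pass (adjusted p = 0.103). With single libraries left out it passed without RPF replicate 2 (0.50, adjusted p = 0.0248) and was 0.20 without RPF replicate 1.

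**Figure D2:**
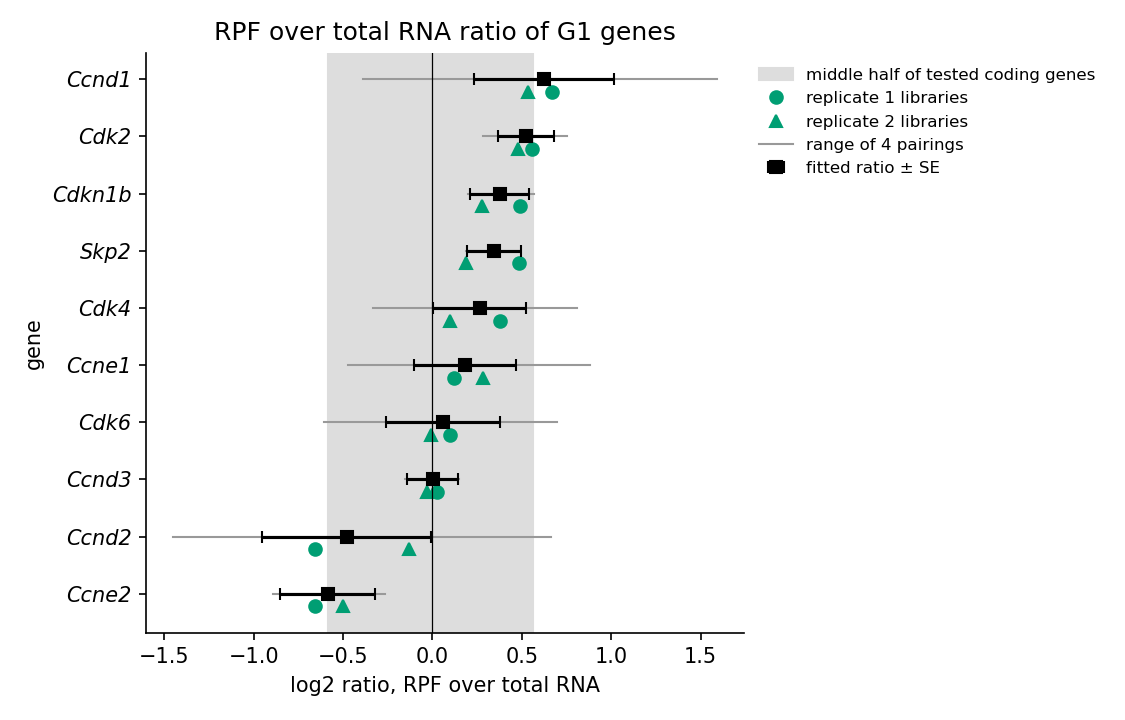
Log2 ratio of RPF over total RNA of each G1 gene, as black squares with the SE of the edgeR fit, the grey line giving the range of the 4 pairings of an RPF with a total RNA library and green symbols the ratio within each replicate number; the grey band is the interquartile range of tested coding genes, -0.58 to 0.56. Ccnd1 at 0.63 and Ccne2 at -0.59 lie just outside the band, and neighbours in the order overlap in the range of their 4 pairings.

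Ordered by ratio the genes ran Ccnd1, Cdk2, Cdkn1b, Skp2, Cdk4, Ccne1, Cdk6, Ccnd3, Ccnd2 and Ccne2. Each neighbour in that order overlapped the next in the range of its 4 pairings, a range that includes libraries of different replicate numbers. Taken within replicate numbers, the neighbours overlapped too except at 2 steps: Ccne1 (0.12 and 0.28) lay above Cdk6 (0.097 and -0.0072), and Ccnd3 (0.026 and -0.028) above Ccnd2 (-0.66 and -0.13). Among 12655 tested coding genes the ratio of Ccnd1 stood at the 77.7th percentile, that of Cdk2 at the 73.5th and that of Ccne2 at the 24.9th. By Euclidean distance over the 4 log2 CPM values, Fignl1 (0.40) and Enox1 (0.44) were the coding genes nearest to Ccnd1, with ratios of 0.50 and 0.93, and Pip4p2 (0.078) and Zdhhc9 (0.18) those nearest to Ccne2, with ratios of -0.53 and -0.50.

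Levels of different genes can be compared only per length. Per kb of coding sequence, footprints of Cdk4 came to 325 ± 111 CPM (SD, n = 2), above Ccnd1 (128 ± 63.6) and Ccnd3 (112 ± 9.76), which overlapped each other. Ccne1 (86.2 ± 24.8), Cdk2 (76.3 ± 10.1), Cdkn1b (74.8 ± 2.74) and Skp2 (63 ± 8.97) followed. Cdk6 (15.9 ± 5.39), Ccnd2 (9.46 ± 3.59) and Ccne2 (7.2 ± 0.828) stood lowest. On this scale Cdk4 was at the 96.3th percentile of tested coding genes and Ccne2 at the 34.7th. In total RNA per kb of annotated exon, Cdk4 again led with 75.8 ± 15.8 CPM, followed by Ccne1 with 37.9 ± 13.8 and Ccnd1 with 15.6 ± 6.84 CPM. The lowest were Ccnd2 with 1.3 ± 0.79 and Cdk6 with 1.07 ± 0.311 CPM, which overlapped. The middle of this order depends on the length used: per kb of the main transcript, Ccnd3 moved from place 4 to 2 and Ccnd1 from 3 to 6, while Cdk4, Cdkn1b, Ccne2, Ccnd2 and Cdk6 kept their places.

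**Figure D3:**
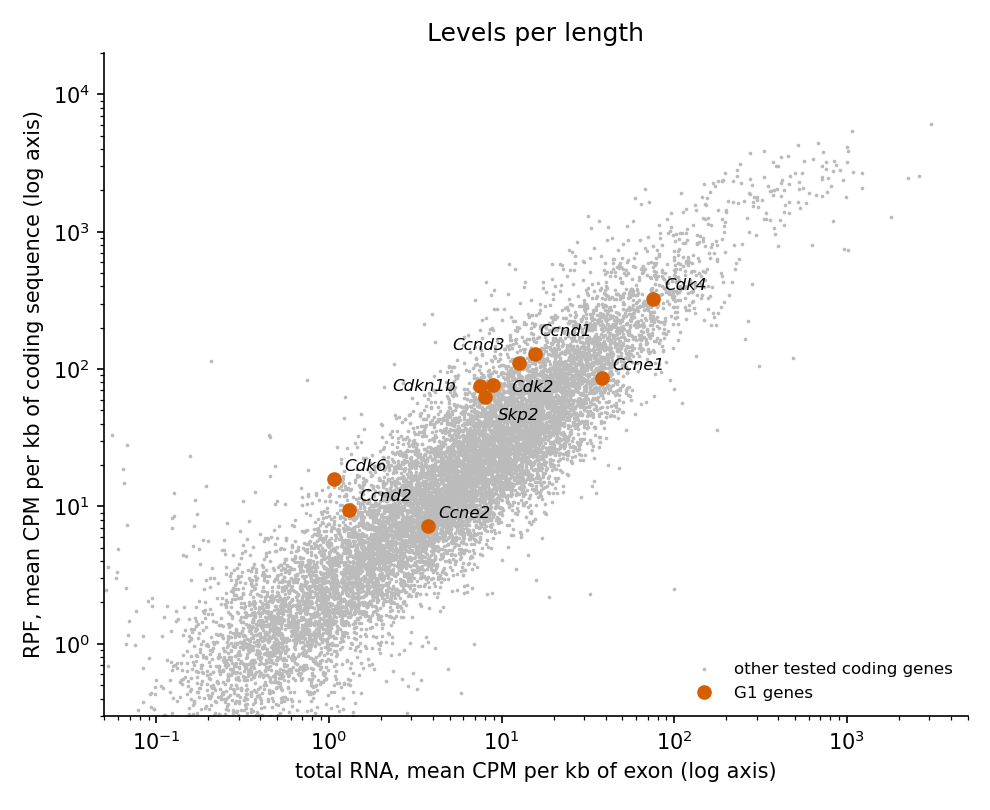
Mean RPF CPM per kb of coding sequence against mean total RNA CPM per kb of exon, both on log axes, for tested coding genes in grey (210 with values outside the axes are not drawn) and the 10 G1 genes in orange. Cdk4 lies at the upper end of the 10, with 325 and 75.8 CPM per kb, and Ccnd2, Cdk6 and Ccne2 form a low group.

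Footprints fall on coding sequence while total RNA reads cover the whole mRNA, so the ratio also carries the coding share of the mRNA. In the complete coding transcript with the longest coding sequence, 8.49% of Cdk6, 13% of Cdkn1b and 13.7% of Ccnd2 is coding, and 23.7% of Ccnd1. The median of tested coding genes was 54.9%, and 3.3% of them lay under 15%. The 3′ untranslated region of Cdk6 measures 10217 bases, that of Ccnd2 5173 and that of Cdkn1b 3439. Of the 10 genes, 6 had at least 1 ATG upstream of the start codon in that transcript, among them Ccnd3 with 6 and Cdk4 with 3, and Cdkn1b, Ccnd1, Ccnd2 and Cdk2 had 0. Over tested coding genes 49.5% had one.

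With a correction for the coding share of that transcript, chosen after seeing the data, 4 of the 10 genes passed as higher and 0 as lower, against 1 and 0 without it. Under the same correction 22.2% of 12613 tested coding genes were higher and 16.4% lower. Cdkn1b stood at 1.08 ± 0.17 (adjusted p = 0.00288), Ccnd1 stood at 1.15 ± 0.39 (adjusted p = 0.0495), Cdk2 at 0.64 ± 0.16 (adjusted p = 0.0162) and Skp2 at 0.49 ± 0.15 (adjusted p = 0.0346). Cdk6 moved to 0.82 ± 0.32 without passing (adjusted p = 0.0784), and Ccnd2 changed sign to 0.22 without passing. A correction for the coding share of all annotated exons also called 4 genes, beside 21.6% of coding genes higher and 17.8% lower, with Ccnd3 (0.43, adjusted p = 0.046) in place of Ccnd1 (0.91, adjusted p = 0.1). Cdkn1b, Cdk2 and Skp2 passed under both forms, and also when exon length was added (0.80, 0.91 and 0.79).

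**Figure D4:**
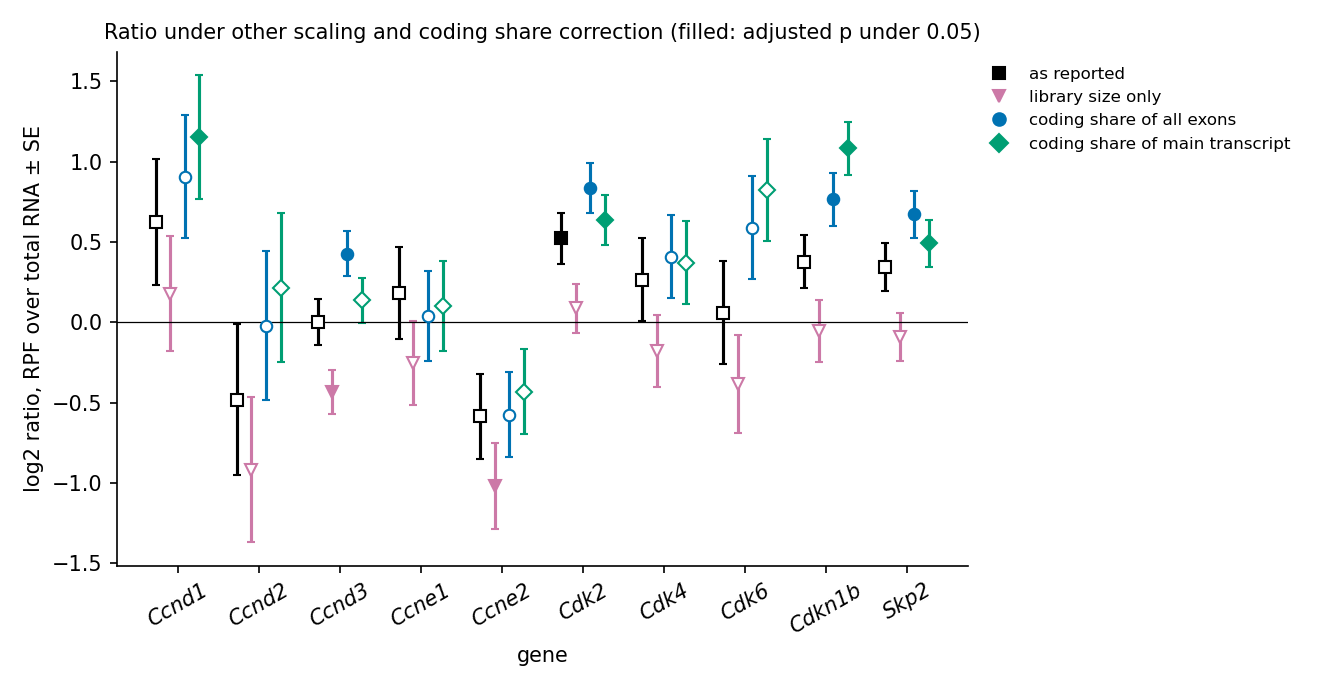
Log2 ratio of RPF over total RNA ± SE of each G1 gene as reported (black), with library size only (pink), and corrected for the coding share of all annotated exons (blue) or of the main transcript (green), filled where the adjusted p is under 0.05. Cdkn1b runs from -0.056 with library size only to 1.08 with the main transcript's coding share, and Ccne2 lies below 0 in all 4 settings.

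The replicates differed for these genes in a way both fractions shared, a comparison made after the values were seen and given without a test. CPM was higher in replicate 1 in both fractions for 8 of the 10 genes, against 33.5% of all tested genes. Cdkn1b was the only one of the 10 higher in replicate 2 in both. Ccnd1 was 2.08-fold higher in replicate 1 in RPF and 1.9-fold in total RNA, and Ccnd2 1.73-fold and 2.5-fold. With Ccne1 (1.51-fold and 1.69-fold) and Cdk6 (1.63-fold and 1.52-fold), 4 of the 10 exceeded 1.5-fold in both fractions, against 3.22% of all tested genes. In 0.94% of tested genes both fractions were higher in replicate 1 by a log2 of at least 0.92, the smaller difference of Ccnd1. Genes higher in replicate 2 are not in this share. With library size only, 8 genes were again higher in both, of which Ccnd1 and Ccnd2 exceeded 1.5-fold, and with DESeq2 size factors the counts were 9 and 4. The labels do not say how the replicates differ, so hairpin, culture and library cannot be told apart.

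**Figure D5:**
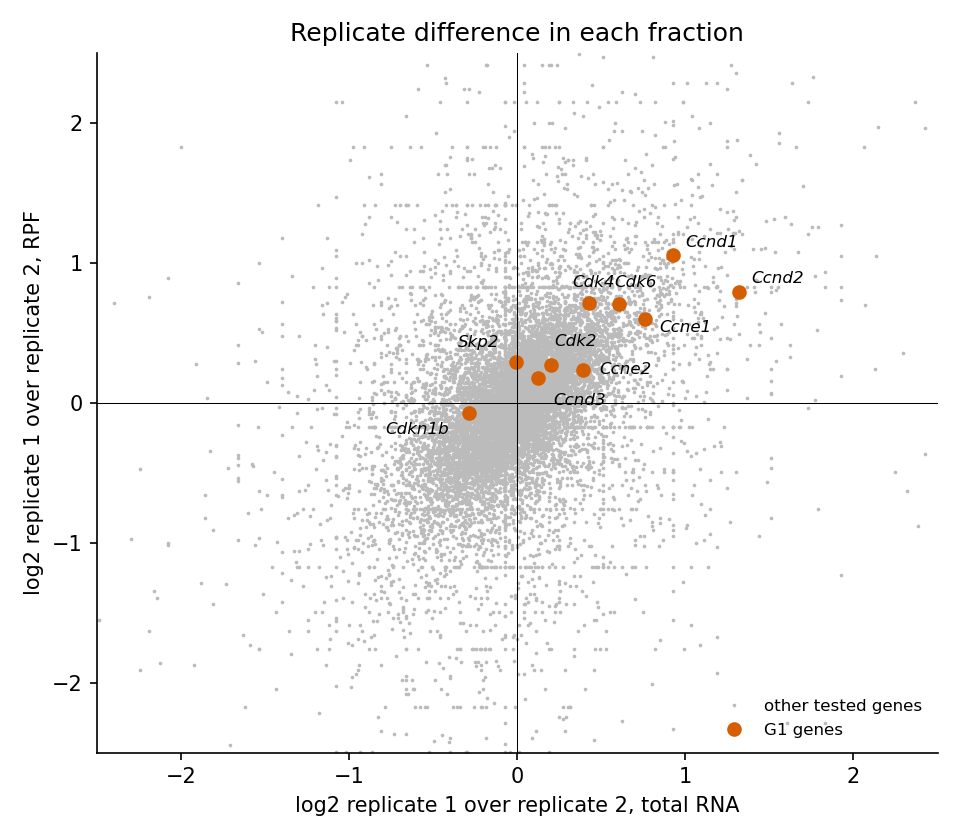
Log2 of replicate 1 over replicate 2 in RPF against the same in total RNA, for tested genes in grey (373 with values beyond 2.5 in size or not finite are not drawn) and the 10 G1 genes in orange. Of the 10, 8 lie in the upper right, Ccnd1 and Ccnd2 farthest out, and Cdkn1b lies in the lower left.

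Of 64 other genes of the G1 pathway that were tested, 15 had a higher ratio, 15 a lower one and 34 did not pass, with a median of 0.034. This is 15 of 64 in each direction, where 20.5% of all tested genes were higher and 21.2% lower. The same shares stand beside each list that follows. None of the lists was tested as a set, and they were chosen with earlier results of these data known. Scaling by library size only gave 7 higher and 26 lower, where 8.86% of all tested genes were higher and 35.9% lower. The counts also moved with single libraries left out. Among other inhibitors of G1 kinases 2 of 5 were higher and 0 lower: Cdkn2a, whose locus encodes p16 and p19ARF (38.5 ± 0.0284 against 9.99 ± 0.552 CPM, 1.95 ± 0.18, adjusted p = 0.000776), and Cdkn1a, p21 (79.3 ± 9.54 against 42.8 ± 8.35 CPM, 0.89 ± 0.18, adjusted p = 0.00812). The call of Cdkn1a was lost with library size only and against a fold of 1.5.

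Among pocket proteins, which are targets of the G1 kinases, and E2F factors, 6 of 13 were lower and 0 higher. E2f2 was lowest (-2.0 ± 0.30, adjusted p = 0.00265) and E2f8, a repressive E2F, highest without passing (0.56 ± 0.32, adjusted p = 0.202). With single libraries left out, E2f8 passed without RPF replicate 2 and without total RNA replicate 1. Of the genes that activate these kinases or act with them, 5 of 8 were higher and 0 lower. Mnat1, the assembly factor of the CDK-activating kinase, led them (1.29 ± 0.14, adjusted p = 0.00106), and Ccna2, cyclin A2, did not pass (0.016 ± 0.14, adjusted p = 0.935). Ccna2 was lower with library size only (-0.42, adjusted p = 0.0414).

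Ubiquitin ligase parts that act on G1 proteins were split, with 4 of 17 higher and 4 lower. Rbx1, the RING subunit of the SCF ligase, was highest (1.18 ± 0.15, adjusted p = 0.00154), and Fbxw7, the F-box protein that binds cyclin E, lowest among genes of at least 10 CPM (-0.81 ± 0.18, adjusted p = 0.0119). Of the inputs to cyclin D, 2 of 12 were higher and 3 lower, and Myc, a growth-promoting transcription factor, was highest (1.8 ± 0.38, adjusted p = 0.00953). Of RNA-binding proteins that act on G1 mRNAs, 2 of 9 were higher and 2 lower. Eif4e, the cap-binding protein, was highest (0.97 ± 0.18, adjusted p = 0.00528), and Pum2, a Pumilio repressor, lowest (-1.0 ± 0.14, adjusted p = 0.00211). The calls of Rbx1, Mnat1, E2f2, Cdkn2a, Myc, Eif4e and Pum2 held in all 16 alternatives, and that of Fbxw7 in all but the test against a fold of 1.5.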

How the data were processed

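The authors deposited raw read counts per gene for each library, with closing tallies for unassigned reads. The submitters' processing notes name build mm9 and, as tools, HTSeq 0.11.2, TopHat2 2.1.1, Bowtie 1.2.3 and edgeR 3.26.8; per the labels' protocols, single-end reads were 50 bp long and each RPF library was sequenced several times. For the strand setting, the feature counted, the gene annotation and the joining of runs, nothing is given in the sources used here. Symbols, lengths and sequences came from GENCODE M21 (GRCm38) by identifier without version, which named 32621 of 37311 identifiers. Sequence positions are GRCm38 and were not used with the counts.

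RPF and total RNA libraries were compared with edgeR 4.0.16 (R 4.3.3) by a quasi-likelihood fit of fraction alone, with TMM and filterByExpr (minimum count 10, minimum total 15). SE is the ratio's size over the square root of F; tests were two-sided, adjusted by Benjamini-Hochberg over 13809 genes, with a threshold of 0.05. A simulation checked only that the fit recovers changes set in some genes, at a fixed dispersion. It lacked the replicate differences that both fractions share here, so it cannot vouch for calls in these data. Alternatives used limma 3.58.1, DESeq2 1.42.0, other scalings and filters, glmTreat, left-out libraries, a replicate block and loess corrections (span 0.5, coding genes only). Nothing in the labels says that replicates are separate cultures beyond the word biological, so p-values measure the spread between these libraries. The 10 genes and the pathway lists were chosen with earlier results of these data known. Named genes were the 10, Eif4a3, the highest and lowest ratio of each list at 10 CPM or more, and the 2 nearest profiles of the extreme genes; 1 gene under this rule is not reported here. Cdkn2d, and Skp1 under that symbol, were not matched.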

Additional observations from a re-analysis of the deposited data

How the results depend on the processing

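The number of G1 genes called depended on the setting. Against 1 higher and 0 lower, no gene was called higher with DESeq2, with no count filter, at a mean of at least 10 CPM, against a fold of 1.5 or with library size only, where 2 were lower (Ccnd3 at -0.43 and Ccne2). Of all tested genes, DESeq2 called 18.8% higher, the unfiltered fit 11.1%, the 10 CPM filter 24.2% and the fold test 8.36%. With library size only, 8.86% of all genes were higher and 35.9% lower. With each of the 3 coding share corrections 4 of the 10 G1 genes were higher, beside 19.2% to 22.2% of coding genes. Leaving out each library in turn gave 0 to 5 higher and 0 to 1 lower, with 5 higher without RPF replicate 2. Over all genes, 2835 higher and 2930 lower became 1223 and 4961 with library size only, 1155 and 1549 against a fold of 1.5, and ranged from 1720 to 3341 and from 1857 to 3440 with libraries left out, lowest without total RNA replicate 2. The other pathway genes, 15 and 15, became 7 and 26 with library size only, 6 and 7 against a fold of 1.5, and 8 to 20 higher and 11 to 15 lower with libraries left out. Ccna2 stood at -0.42 with library size only, which moved the median of all genes from -0.024 to -0.46 (-0.19 with no count filter). The cause of these changes was not tested.

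Same-numbered libraries of both fractions deviated together across genes (r = 0.475 of the log2 differences between replicates, pseudocount 1 CPM), but nothing in the labels pairs them. With the replicate block, 4257 genes were higher and 4365 lower, 23 pathway genes higher and 20 lower, and 5 of the G1 genes higher (Ccnd1, Cdk2, Cdk4, Cdkn1b, Skp2) and 1 lower (Ccne2, -0.58, adjusted p = 0.0151), where 30.8% of all genes were higher and 31.6% lower. E2f8 was higher under it too (0.59, adjusted p = 1.04e-05). Counts of 44 to 184 limit Ccnd2, Ccne2 and Cdk6.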
